A study of Mus musculus with 4 samples.

Results

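The catabolism of the branched-chain amino acids leucine, isoleucine and valine was examined in mouse DFAT cells through 10 genes, Bcat2, Bckdha, Bckdhb, Dbt, Ivd, Hibch, Hibadh, Aldh6a1, Pcca and Pccb. The genes were taken by name from the platform annotation, which gave them 14 of the 34945 probe sets that carry a single gene symbol and are not controls, and 10 of 18193 genes. DFAT stands for de-differentiated fat, fibroblast-like cells that arise when mature fat cells lose their lipid in culture. The cells were kept in Dulbecco's modified Eagle's medium with fetal bovine serum in all 4 groups, and total RNA was hybridised to single-colour Affymetrix arrays. The groups were cells given the solvent DMSO, cells given Y-27632, which inhibits the ROCK kinases that drive actomyosin contraction, cells transfected with Control siRNA, and cells transfected with Mkl1 siRNA. Mkl1, whose present symbol is Mrtfa, encodes an actin-regulated coactivator of the transcription factor SRF. The labels state no dose, duration or source animal. With 1 array in each group, none of the differences below is checked by a replicate, no p-values are possible, and precision is limited by how few arrays there are.

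Branched-chain amino acids are broken down in the mitochondrion. A transaminase, mitochondrial BCAT2 or cytosolic BCAT1, removes the amino group, and the branched-chain ketoacid dehydrogenase complex then commits the carbon skeleton to oxidation. The skeletons follow separate routes to acetyl-CoA or, through propionyl-CoA, to succinyl-CoA. Mature fat cells are known to carry this pathway at high activity and to use its products for lipid synthesis.

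All signals below are log2 RMA signals, on which a difference of 1 is a 2-fold ratio, and a gene with several probe sets is read by the one with the highest mean. All 10 members passed the filter, which asked that the highest array reach the median of all values, 5.69, and 11600 genes in all did so. With Y-27632 all 10 members lay above DMSO, with a median difference of 0.37 against 0.00 over all genes tested. With Mkl1 siRNA all 10 lay above Control siRNA, with a median of 0.64 against 0.00. Over all genes tested, 50.4% and 50.1% lay above 0 in these comparisons. The Control siRNA array differed from DMSO by a member median of -0.05, against -0.01 over all genes tested, with members from -0.35 to 0.15. Control transcripts from bacteria (dap, lys, phe and thr), read by 24 probe sets, also differed, with medians of 0.30 for Y-27632 over DMSO, 0.26 for Mkl1 siRNA over Control siRNA and -0.32 for Control siRNA over DMSO. With Mkl1 siRNA these transcripts had a median of -0.05 against DMSO, where the members had 0.63. With Y-27632 the transcripts had a median of 0.61 against Control siRNA, where the members had 0.40. The part of these control transcripts in the members' differences was not tested.

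Most of the differences were smaller than 2-fold. Aldh6a1 was the 1 member at least 2-fold higher with Y-27632, where 1.27% of all genes tested were, and also with Mkl1 siRNA, where 1.79% were. At 1.5-fold, 2 of 10 members were higher with Y-27632 (3.00% of all genes tested) and 6 of 10 with Mkl1 siRNA (5.42%). No member was lower in either comparison or at least 1.5-fold different between the control arrays, where 3.42% of all genes were higher and 4.09% lower by that much. In 8 of 10 members both treated arrays lay above both control arrays, an arrangement found in 17.2% of all genes tested. The exceptions were Bcat2 and Pccb. Among related genes tested, the arrangement held in 12 of 17 of fatty acid beta-oxidation and 8 of 14 of the citric acid cycle. It held in all 16 tested genes of a mature adipocyte list. Hibch and Pccb differed more with Y-27632 and the other members more with Mkl1 siRNA, a contrast that was not tested. Over all genes tested, too, more were at least 1.5-fold higher with Mkl1 siRNA (5.42%) than with Y-27632 (3.00%).

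**Figure D1:**
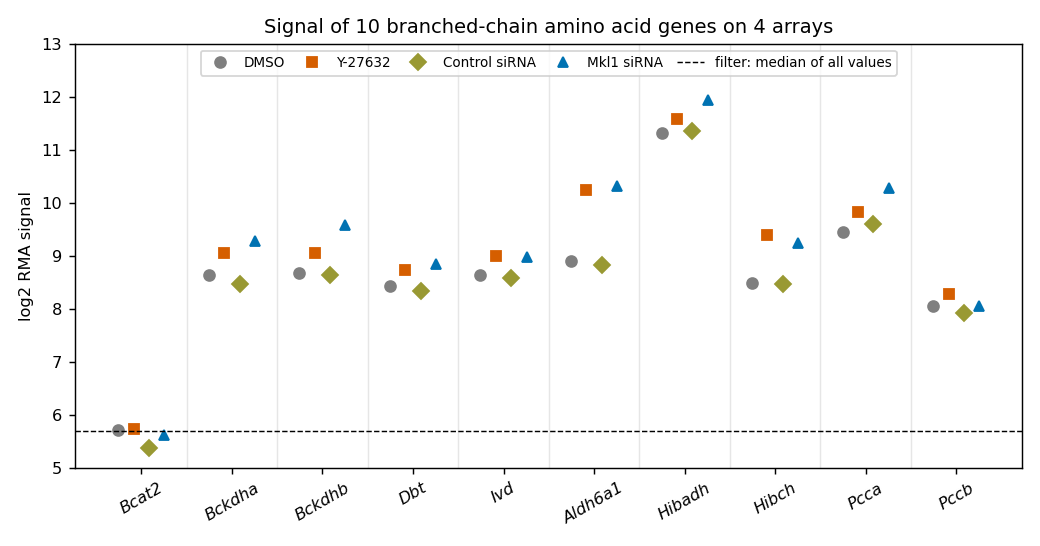
Log2 RMA signal (vertical axis) of the 10 members on the 4 arrays, with 1 point per array and a dashed line at the filter of 5.69. The Y-27632 and Mkl1 siRNA points lie above both control points in 8 members, Bcat2 sits at the filter, and probes of different genes cannot be compared in level.

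The first step was read weakly. Bcat2, the mitochondrial transaminase, had signals of 5.72 with DMSO, 5.73 with Y-27632, 5.37 with Control siRNA and 5.63 with Mkl1 siRNA. These values lie at the filter, where RMA compresses differences. Its differences were 0.01 for the inhibitor and 0.26 for the knockdown, and the Mkl1 siRNA array lay below DMSO, at -0.09. Its single probe set ends in _a_at, a suffix for probe sets that recognise several transcripts of a gene.

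Bcat1, which encodes the cytosolic transaminase of the same reaction, stood on the other side. Its signals were 10.13 with DMSO, 9.70 with Y-27632, 9.51 with Control siRNA and 8.41 with Mkl1 siRNA. It was lower by 0.43 with Y-27632 and by 1.10 with Mkl1 siRNA, a comparison in which 1.74% of all genes tested were at least 2-fold lower. The Control siRNA array lay between, with a difference of -0.62 from DMSO, so that Y-27632 was 0.19 above Control siRNA. All 3 Bcat1 probe sets were lower in both comparisons, from -0.43 to -0.09 with Y-27632 and from -1.10 to -0.32 with Mkl1 siRNA.

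The subunits of the branched-chain ketoacid dehydrogenase complex were higher with both treatments. Bckdha, the alpha subunit of the decarboxylase component, had signals of 8.64 with DMSO, 9.05 with Y-27632, 8.47 with Control siRNA and 9.27 with Mkl1 siRNA, giving differences of 0.41 and 0.81. Bckdhb, its beta subunit, read 8.68, 9.06, 8.64 and 9.59 in the same order, with differences of 0.39 and 0.95, the latter a ratio of 1.94. Dbt, the transacylase core of the complex, read 8.42, 8.74, 8.33 and 8.84, with differences of 0.32 and 0.51. In each of these 3 subunits the controls were the lowest arrays, Mkl1 siRNA was the highest and Y-27632 lay between. Against the other control array the 3 subunits remained on the higher side, from 0.41 to 0.58 for Y-27632 over Control siRNA and from 0.42 to 0.91 for Mkl1 siRNA over DMSO.

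Dld, the dihydrolipoamide dehydrogenase that this complex shares with the pyruvate and oxoglutarate dehydrogenases, was also higher, by 0.55 and 0.64. Its second probe set, near background at 3.35 to 3.55, stood at 0.20 and -0.10. The genes that switch the complex off and on differed little from the control of each treatment. Bckdk, the kinase that inactivates the complex, differed by -0.10 for the inhibitor and -0.07 for the knockdown. Against the other control array Bckdk stood at 0.18 with Y-27632 and -0.35 with Mkl1 siRNA. Its control arrays differed by -0.28. Ppm1k, the phosphatase that activates the complex, differed by -0.08 and -0.12, but Y-27632 stood at -0.21 against Control siRNA. The 2 probe sets of each ran from -0.10 to 0.05 and from -0.08 to 0.07 with Y-27632, where the probe sets of a gene did not share a sign.

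In the valine route lay Aldh6a1, the member furthest from control in both comparisons, and Hibch, the next furthest with Y-27632 and the fourth with Mkl1 siRNA, after Bckdhb and Bckdha. Aldh6a1, the methylmalonate semialdehyde dehydrogenase that ends the route at propionyl-CoA, had signals of 8.90 with DMSO, 10.25 with Y-27632, 8.84 with Control siRNA and 10.31 with Mkl1 siRNA. Its differences were 1.35 and 1.48, or ratios of 2.55 and 2.78, while its control arrays differed by -0.06. The treated arrays were both more than 2-fold above both controls. Among all genes tested Aldh6a1 stood at the 99.3rd percentile with Y-27632 and the 99.2nd with Mkl1 siRNA.

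Hibch, which releases hydroxyisobutyrate from CoA, read 8.49, 9.39, 8.46 and 9.25 in that same order of arrays, for differences of 0.90 and 0.79. Its second probe set, at a weaker signal of 5.88 to 7.02, gave 1.03 and 0.86. Both probe sets thus placed the treated arrays above the controls, and 1 of them passed 2-fold with Y-27632. Aldh6a1 and Hibch were the 2 members at least 1.5-fold higher in both comparisons, where 1.53% of all genes tested were. Hibadh, which oxidises hydroxyisobutyrate, differed less. It read 11.31, 11.59, 11.35 and 11.94, with differences of 0.28 and 0.59, and its second probe set gave 0.40 and 0.52.

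**Figure D2:**
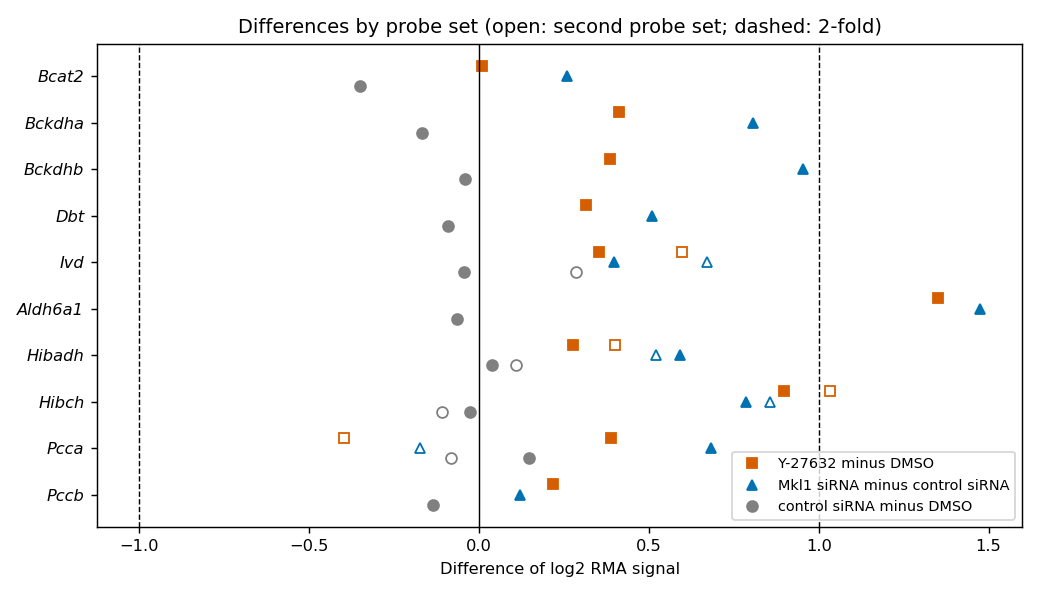
Difference of log2 RMA signal (horizontal axis) for each member, with filled points for the probe set of highest mean, open points for a second probe set, and dashed lines at 2-fold. Aldh6a1 lies past 2-fold in both treatment comparisons, the Hibch probe sets lie between 0.79 and 1.03, and the second Pcca probe set lies below 0.

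The bases before the annotated start are given for Aldh6a1 and Hibch, the members at least 1.5-fold higher in both comparisons, and for Pccb, the member nearest to control with Mkl1 siRNA, because the members differed from control to unequal degrees. They come from the RefSeq promoter table of build GRCm38.p6, which held 13 starts for 9 of the 10 members and none for Dbt. Each run holds the 250 bases upstream of a start, 5′ to 3′ on the gene's strand, and capitals mark matches on either strand to the CCAAT box (CCAAT) and the GC box (GGGCGG). Aldh6a1 is shown at both of its starts, on the minus strand at chr12:84448318-84448567 and chr12:84451025-84451274, Hibch on the plus strand at chr1:52844788-52845037, and Pccb on the minus strand at chr9:101034885-101035134.
Aldh6a1, start at lower coordinate: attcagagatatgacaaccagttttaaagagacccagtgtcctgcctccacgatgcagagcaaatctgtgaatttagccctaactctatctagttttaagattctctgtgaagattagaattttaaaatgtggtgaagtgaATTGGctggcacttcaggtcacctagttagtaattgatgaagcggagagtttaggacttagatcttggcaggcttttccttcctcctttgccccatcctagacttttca
Aldh6a1, start at higher coordinate: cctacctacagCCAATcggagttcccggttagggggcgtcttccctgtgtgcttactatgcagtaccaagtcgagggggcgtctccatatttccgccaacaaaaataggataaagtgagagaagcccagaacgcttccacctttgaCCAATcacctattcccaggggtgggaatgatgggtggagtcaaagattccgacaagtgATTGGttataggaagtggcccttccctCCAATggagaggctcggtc
Hibch: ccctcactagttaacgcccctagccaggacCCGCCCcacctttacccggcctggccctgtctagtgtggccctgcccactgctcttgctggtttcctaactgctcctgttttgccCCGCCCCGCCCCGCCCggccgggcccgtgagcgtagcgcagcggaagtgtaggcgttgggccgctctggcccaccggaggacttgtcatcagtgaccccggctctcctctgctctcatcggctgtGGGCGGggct
Pccb: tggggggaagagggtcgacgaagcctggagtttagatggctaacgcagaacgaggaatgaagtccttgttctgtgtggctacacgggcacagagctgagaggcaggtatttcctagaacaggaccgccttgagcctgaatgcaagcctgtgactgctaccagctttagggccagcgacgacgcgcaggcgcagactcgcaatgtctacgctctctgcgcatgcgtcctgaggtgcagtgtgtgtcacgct

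None of the motifs searched was present in all of these windows. The Aldh6a1 window at the higher coordinate held 4 CCAAT matches and no GC box, the Hibch window held 5 GC boxes and no CCAAT, and the Pccb window held neither. Over the 13 member windows, 7 held CCAAT, against 33.8% of all 32851 windows of the same length, and 4 held a GC box, against 32.7%. The KLF box (CACCC) was in 6, against 52.0%, and the nuclear receptor hexamer (AGGTCA) in 3, against 14.0%. None held the E-box (CACGTG), found in 6.02%, or the direct repeat with 1 base between (AGGTCANAGGTCA), found in 0.0335%. Every motif was searched on both strands, and the hexamer lies within the direct repeat. The GC content of the member windows ran from 36.4% to 68.0% with a median of 52.4%, which was also the median of all windows. These letters describe the windows and say nothing of which factor binds.

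In the leucine route the member Ivd, isovaleryl-CoA dehydrogenase, read 8.63 with DMSO, 8.99 with Y-27632, 8.59 with Control siRNA and 8.99 with Mkl1 siRNA. Its differences were 0.35 and 0.40. The second probe set gave 0.60 and 0.67, but there Control siRNA itself stood 0.29 above DMSO. The treated arrays lay above both controls on each probe set, by at least 0.31 on the second. Of the later leucine enzymes, Auh, which hydrates methylglutaconyl-CoA, was higher by 0.25 and 0.72 on its brightest probe set, but there Y-27632 differed from Control siRNA by -0.13. Its other 5 probe sets were weaker, and over all 6 the values with Mkl1 siRNA ran from -0.83 to 0.72.

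The last members make succinyl-CoA precursors from propionyl-CoA. Pcca, the biotin-carrying alpha subunit of propionyl-CoA carboxylase, read 9.45, 9.84, 9.59 and 10.28 in the order DMSO, inhibitor, Control siRNA and knockdown, with differences of 0.39 and 0.68. Its second probe set lay below the filter on every array, at 5.04 to 5.44, and gave -0.40 and -0.17. With the mean of both probe sets Pcca differed by -0.00 with Y-27632 and 0.25 with Mkl1 siRNA. Pccb, the beta subunit, read 8.06, 8.28, 7.92 and 8.05, with differences of 0.22 and 0.12. Its Mkl1 siRNA array differed from DMSO by -0.02, so the subunits of this enzyme did not stand apart from control to the same degree.

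Of the other enzymes of the pathway, 14 of 17 listed were tested, and 12 of the 14 were above control in each comparison. Their medians were 0.24 for Y-27632 and 0.40 for the knockdown, against 0.00 and 0.00 over all genes tested. None was at least 2-fold higher in either comparison. At 1.5-fold, 1 was higher with Y-27632 (3.00% of all genes tested) and 3 with Mkl1 siRNA (5.42%), the latter being Auh, Hadhb and Dld. Hadhb, the beta subunit of the trifunctional protein, was higher by 0.34 and 0.68, but Y-27632 stood only 0.06 above Control siRNA. Echs1, an enoyl-CoA hydratase chosen for naming after its value was seen, was the 1 past 1.5-fold with Y-27632, at 0.59. Besides Bcat1, the genes not above 0 were Hsd17b10 at -0.03 with Y-27632 and Acadsb at -0.00 with Mkl1 siRNA, also named after their values were seen. In 9 of the 14 both treated arrays lay above both controls (17.2% of all genes tested). The Y-27632 median was 0.12 against Control siRNA, and the median between the control arrays was 0.11 for this list.

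**Figure D3:**
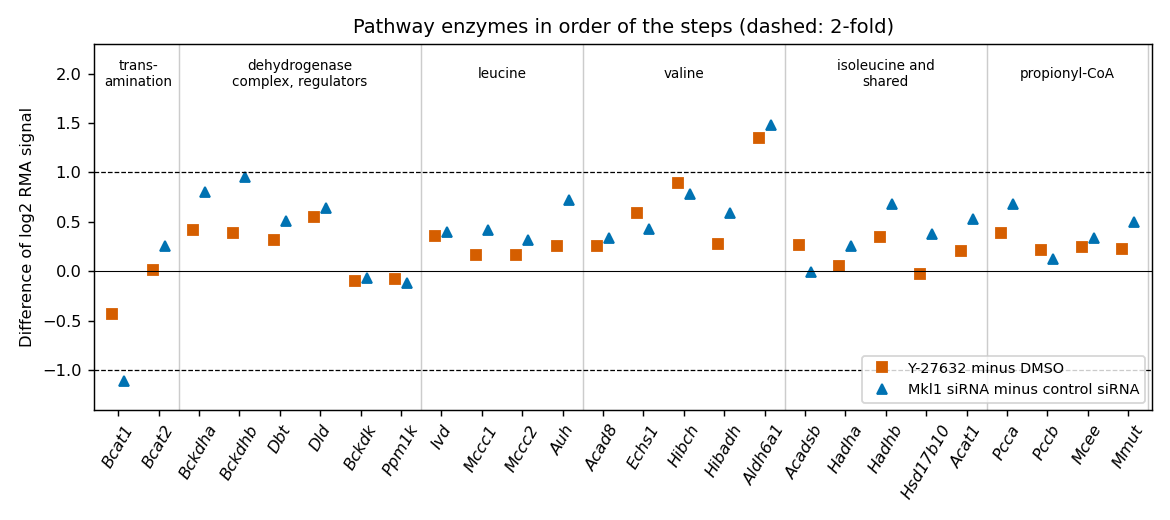
Differences of log2 RMA signal (vertical axis) for the members and the other tested pathway genes in order of the steps (horizontal axis), with squares for Y-27632 minus DMSO, triangles for Mkl1 siRNA minus control siRNA and dashed lines at 2-fold. Bcat1 is the lowest at -0.43 and -1.10, Aldh6a1 the highest at 1.35 and 1.48, and Bckdk and Ppm1k lie near 0.

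Genes that supply the pathway's cofactors moved less evenly. Of 9 tested, 8 were above DMSO with Y-27632 (median 0.13) and 5 above Control siRNA with Mkl1 siRNA (median 0.17), and none was at least 2-fold higher. Hlcs, which attaches biotin to carboxylases such as the Pcca product, was higher by 0.14 and 0.99 and read 6.07, 6.20, 5.87 and 6.85 on the 4 arrays in the order given above. Lipt2, which takes part in lipoate attachment, was higher by 0.23 and 0.50. Mmachc and Mmadhc, which handle cobalamin, differed by 0.47 and 0.04 with Y-27632 and by -0.06 and -0.29 with Mkl1 siRNA.

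For some transporters of these amino acids the control arrays differed more than either treatment pair. Of 5 tested, 3 lay above 0 in each treatment comparison, with medians of 0.20 and 0.16, and the median between the controls was -0.72. Slc7a5, the light chain of a large neutral amino acid exchanger, read 11.06 with DMSO, 10.82 with Y-27632, 9.43 with Control siRNA and 9.37 with Mkl1 siRNA. Both transfected arrays were thus the low ones, with Control siRNA at -1.63 from DMSO, where 1.09% of all genes tested were at least 2-fold lower. Slc43a1 and Slc43a2, which carry neutral amino acids across the cell membrane, were higher by 0.31 and 0.63 with Y-27632 and by 0.23 and 0.24 with Mkl1 siRNA. Against DMSO, however, Slc43a1 differed by -0.54 with Mkl1 siRNA. The control arrays differed by 0.24 in Slc43a2, less than the Y-27632 difference. The 3 Slc43a2 probe sets ran from -0.07 to 0.63 with Y-27632. Slc25a44, the mitochondrial carrier of branched-chain amino acids, differed by 0.20 and -0.11, and both signs turned against the other control array, at -0.06 and 0.15.

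Genes of leucine sensing and mTORC1, which reads cellular leucine, had medians of 0.03 and 0.10 over 10 tested, and none was at least 1.5-fold higher in either comparison. The members furthest from 0 were Sesn3 at 0.47 and -0.01, Rraga at 0.07 and 0.39, Nprl2 at 0.01 and 0.25 and Rptor at -0.05 and -0.23. Sesn3 differed by 0.90 between the control arrays, and Y-27632 differed from Control siRNA by -0.43, so its direction turned with the control used. Of the ketone body enzymes 2 were tested, Acat1, which also ends isoleucine breakdown, at 0.21 and 0.53, and Oxct1 at 0.09 and 0.38. Against Control siRNA Oxct1 differed by -0.15 with Y-27632.

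Related mitochondrial lists were set beside the 10 members as counts and medians. Of 14 citric acid cycle genes, 13 lay above DMSO with Y-27632 (median 0.20) and 12 above Control siRNA with Mkl1 siRNA (median 0.35). The shares above 0 over all genes tested were 50.4% and 50.1%. Idh3a, the catalytic subunit of isocitrate dehydrogenase, was the furthest at 0.37 and 0.90, with Idh3g at 0.15 and 0.62, Fh1 at 0.14 and 0.55 and Idh3b at 0.29 and 0.53. Of 17 genes of fatty acid beta-oxidation, 16 and 14 lay above control, with medians of 0.23 and 0.38, including Hadh at 0.30 and 0.79 and Acadm at 0.54 and 0.71. The control arrays differed by 0.37 in Acadm, and Y-27632 stood 0.17 above Control siRNA, where the list's median was 0.16. The sister complexes, pyruvate and oxoglutarate dehydrogenase with their regulators, had medians of 0.15 and 0.23 over 12 genes. Their subunits Pdhb (0.32 and 0.78), Dlat (0.24 and 0.69) and Pdhx (0.58 and 0.67) were higher, and the subunit Pdha1 lay below control at -0.10 and -0.17. The kinase gene Pdk4 differed by -0.56 and -0.15, but Mkl1 siRNA stood 0.05 above DMSO. In 6 of the 12 both treated arrays lay above both controls (17.2% of all genes tested). In 3, Pdha1 among them, both treated arrays lay below both controls (1807 of 11600 genes tested). The members' medians of 0.37 and 0.64 were the highest of these lists, and whether they differ from them was not tested. The members and the lists were chosen with earlier results of these data known. The other tested enzymes of the pathway had medians of 0.24 and 0.40.

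**Figure D4:**
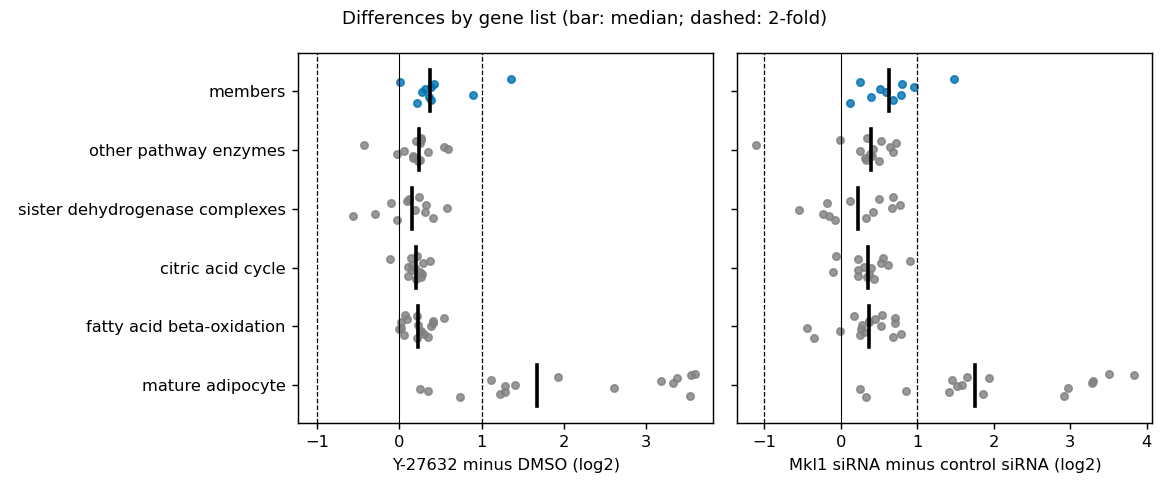
Difference of log2 RMA signal (horizontal axes) by gene list for Y-27632 minus DMSO (left) and Mkl1 siRNA minus control siRNA (right), with 1 point per gene, a bar at each median and dashed lines at 2-fold. The branched-chain members (blue) have medians of 0.37 and 0.64, above the other mitochondrial lists and below the mature adipocyte list at 1.67 and 1.75.

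Fat cell genes moved with the members on the same arrays. All 16 tested genes of the mature adipocyte list (of 20 listed) lay above control in both comparisons, 13 of them at least 2-fold in each: Adipoq, Fabp4, Cidec, Cd36, Retn, Adig, Pnpla2, Lipe, Dgat2, Agpat2, Cebpa, Pparg and Gpd1. Of all genes tested, 1.27% were at least 2-fold higher with Y-27632 and 1.79% with Mkl1 siRNA. Over the 19 measured genes, the summed signal on the linear scale was 26614 with DMSO, 60974 with Y-27632, 27246 with Control siRNA and 64756 with Mkl1 siRNA. The leptin gene Lep was near background on every array, at 3.22 to 3.62, while Adipoq was at 10.14, Fabp4 at 12.70 and Lpl at 13.98 with DMSO, so fat cell transcripts were not absent from the control arrays of cells labelled as de-differentiated. Pparg, a nuclear receptor central to adipogenesis, stood higher by 1.23 and 1.86, Cebpa by 1.11 and 1.45, and Klf15, a factor known to promote branched-chain amino acid breakdown in muscle, by 1.04 and 1.01. The control arrays differed in all 3, with Control siRNA at 0.30 from DMSO for Pparg, 0.57 for Cebpa and -0.97 for Klf15. Against Control siRNA, Y-27632 stood at 0.93 for Pparg and 0.53 for Cebpa, both under 2-fold. In that comparison 11 of the 16 adipocyte genes were at least 2-fold higher, as were 236 of all 11600 genes tested. Against DMSO, Mkl1 siRNA stood at 0.04 for Klf15. The part of this marker shift in the members' differences was not tested, and in bulk RNA more cells of a type and more RNA per cell cannot be told apart.

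Markers of other cell types were checked in the same way. Of 11 stromal and fibroblast markers tested, 8 reached the filter on every array. They ranged from Col3a1 at 14.13 to 14.51, Vim at 13.90 to 14.14 and Pdgfra at 12.68 to 12.79 down to Dlk1 at 5.98 to 6.25, while Dpp4 (5.60 to 5.97), Pi16 (5.47 to 8.29) and Cd34 (3.53 to 6.36) fell below the filter on at least 1 array. Of the 11, 8 lay above DMSO with Y-27632 (median 0.06) and 1 above Control siRNA with Mkl1 siRNA (median -0.32). Those at least 2-fold different on the probe set of highest mean were Cd34 at 1.79 and -1.82, Pi16 at 1.69 and -0.43, Fap at 1.11 and -0.20 and Col1a1 at 0.18 and -1.05. A weaker Col3a1 probe set differed by 0.26 and -1.51, reading 12.83 with Control siRNA and 11.33 with Mkl1 siRNA. The weaker Pdgfra probe sets stood at -0.07 and -0.06 with Y-27632 and at -0.48 and -0.51 with Mkl1 siRNA. Cd34 reached the filter only with Y-27632, so its -1.82 lies between arrays that were both below the filter. Against the other control array Cd34 stood at 1.01 with Y-27632 and -1.04 with Mkl1 siRNA. Pi16 stood there at 2.39 and -1.13, Fap at 0.67 and 0.23 and Col1a1 at 0.52 and -1.38. Defining markers of blood vessels (Pecam1), leukocytes (Ptprc) and muscle precursors (Myf5) were near background on every array, at most 3.77, 3.48 and 2.59. Other genes of these lists did pass the filter, namely Kdr (5.58 to 5.79) of 7 endothelial genes, Lyz2 (5.89 to 6.73), Csf1r (6.38 to 6.45) and Cd3e (6.10 to 6.14) of 8 leukocyte genes, and Des (8.01 to 8.17) and Chrna1 (5.10 to 5.74) of 6 myoblast genes. Their levels lay close together on the 4 arrays except in Lyz2, at -0.84 with Y-27632, and Chrna1, at 0.41. The summed linear signal of the 8 leukocyte markers was 299.4 to 351.1, that of the 7 endothelial markers 172.3 to 208.3, and that of the 6 myoblast markers 365.0 to 407.4.

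Across the series, array medians were 5.67 to 5.71 and Pearson correlations between arrays over all probe sets were 0.987 to 0.995. The targeted transcript Mrtfa read 8.32 with DMSO, 8.18 with Y-27632, 8.55 with Control siRNA and 7.70 in the knockdown, which is -0.85 from its control. Its relative Mrtfb differed by 0.05 and Srf by -0.49 with Mkl1 siRNA. On the treated arrays 18S ribosomal RNA, read by 3 control probe sets, was lower, from -0.58 to -0.47 with Y-27632 and from -0.50 to -0.43 with Mkl1 siRNA. The 3′ end of Actb read above its 5′ end, at 14.25 against 13.40 with DMSO. This gap was wider by 0.26 with Y-27632 than with DMSO and by 0.14 with Mkl1 siRNA than with Control siRNA. Control transcripts added at hybridisation (bioB, bioC, bioD and cre), read by 18 probe sets, had medians of -0.14 for the inhibitor and 0.07 for the knockdown. The part of any of these in the members' differences was not tested.

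**Figure D5:**
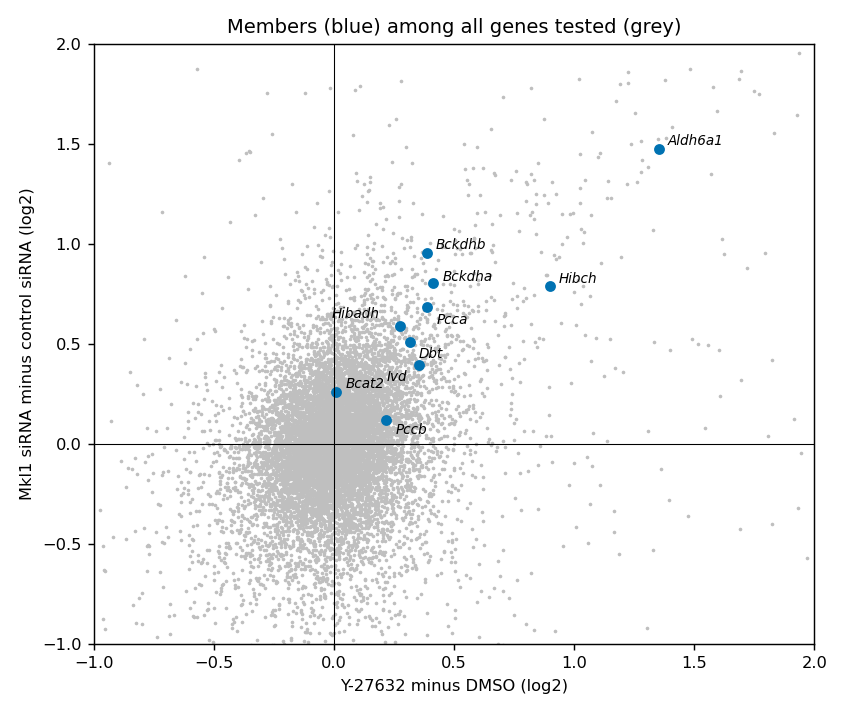
Y-27632 minus DMSO (horizontal axis) against Mkl1 siRNA minus control siRNA (vertical axis), log2, for all genes tested (grey) and the 10 members (blue), with axes limited to -1 to 2, so that 274 genes lie outside. All 10 members lie in the upper right part of the plot, with Aldh6a1 furthest out and Bcat2 and Pccb nearest the axes.

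Placed among all 11600 genes tested, 7 of the 10 members were in the top 10 percent of differences with Y-27632, and 7 with Mkl1 siRNA. Beyond Aldh6a1 and Hibch (98.5th and 97.1st percentile), these were in both comparisons Bckdha (94.5th and 97.2nd), Bckdhb (93.8th and 98.0th), Dbt (91.3rd and 93.0th) and Pcca (93.9th and 96.1st). Ivd was in the top 10 percent with Y-27632 and Hibadh with Mkl1 siRNA. Bcat2 stood at the 51.6th and 80.5th percentile and Pccb at the 85.0th and 66.7th.

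The mean of the members, each centred on its own 4-array mean, was -0.24 with DMSO, 0.22 with Y-27632, -0.32 with Control siRNA and 0.34 with Mkl1 siRNA. Within the set, Bckdha kept closest to this profile, with a root mean square distance of 0.06, and Aldh6a1 was furthest at 0.43. The 5 genes outside the set with the closest profile over these 4 arrays were Pla2g12a, a secreted phospholipase, at a distance of 0.02, Cpt2, a carnitine palmitoyltransferase of fatty acid oxidation, at 0.03, Gpt, alanine aminotransferase, at 0.03, Vgll4, a TEAD cofactor, at 0.04, and Il15ra, the interleukin 15 receptor alpha chain, at 0.04. Cpt2 was higher by 0.41 and 0.71 and Gpt by 0.46 and 0.65. With 4 arrays such a likeness is a description.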

How the data were processed

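Expression was measured on 4 single-colour Affymetrix arrays, 1 per group, with groups taken from the sample titles. Per the submitters' processing notes, the authors used RMA, and the deposited table holds 1 log2 signal per probe set and array. No source used here gives the RMA version or the chip definition. RMA quantile-normalises arrays, so a change in total RNA content would not be seen, and it compresses differences near background. That the scale is log2 follows from the range of values, 2.02 to 14.6. The annotation gives a single gene symbol to 34958 of 45101 probe sets, several to 932 and none to 9211, and symbols were updated through a reference gene table used for names only. Each gene was read by the probe set with the highest mean. Differences, counts and medians were computed with pandas 2.3.3, loess with statsmodels 0.14.6 (span 0.3), and the calculations were tested on simulated data. The members and the 15 gene lists were chosen with earlier results of these data known. Some listed genes were not analysed here. Named genes were the members, list genes at least 2-fold different, otherwise up to 4 per list with the largest difference, Mkl1, Mkl2, Srf, Klf15, Pparg and Cebpa, and the 5 nearest profiles. Alternatives changed the probe set rule, filter, scaling, threshold and control array. With 1 array per group no test or leave-one-out was possible. Promoter windows were the 250 bases before each RefSeq start.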

Additional observations from a re-analysis of the deposited data

Results flagged for a closer look

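Outside the gene table, 1 control probe set was at least 2-fold higher in both treatment comparisons. It reads the 3′ end of pyruvate carboxylase, Pcx, a biotin enzyme like propionyl-CoA carboxylase, and differed by 1.77 with Y-27632 and by 2.10 with Mkl1 siRNA, against 0.11 between the control arrays. The other control probe sets of the same transcript gave 0.13 and 0.33 at the 5′ end, 0.08 and 0.22, and 0.81 and 0.95 in the middle.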

How the results depend on the processing

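No paired analysis was possible because each group had 1 array. The count of members at least 2-fold different with Y-27632 was 2 of 9 without probe sets ending in _s_at, _x_at or _a_at, where Hibch was read by its other probe set at 1.03 and Bcat2 had none left. At 1.5-fold the counts were 2 with Y-27632 and 6 with Mkl1 siRNA, by construction of the lower threshold. Against Control siRNA the median of the other pathway enzymes with Y-27632 was 0.12, and the cause was not tested. The members' medians stayed within 0.1 of 0.37 and 0.64 under every alternative run. With the mean of all probe sets, 9 of 10 members lay above DMSO with Y-27632, Pcca being the exception, and both treated arrays lay above both controls in 7 of 10, an alternative chosen after seeing the data. With DMSO as the control for Mkl1 siRNA, 8 of 10 lay above 0, the exceptions being Bcat2 and Pccb. Loess and median subtraction moved no member by over 0.1. The deposited values carry no background estimate, so for Bcat2, at the filter, no difference can be read with confidence.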
